A study of Mus musculus with 44 samples.

Results

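Among 43 lymphomas of Eµ-myc mice, the 10 with the highest and the 10 with the lowest level of 4 neutrophil granule genes were compared. The 20 lymphomas were chosen by the mean of Ltf, Camp, Ngp and Lcn2, each taken minus its mean over the lymphomas of the same array set, and this mean is called the marker score here. The 10 highest are called granule-rich and the 10 lowest granule-poor, and 23 lymphomas lay between them. The series holds 44 arrays, of which 43 were labelled lymphoma and 1 spleen. All carried the Eµ-myc genotype, in which the immunoglobulin heavy chain enhancer drives Myc in the B lineage and B cell tumours follow. The labels give no treatment, age, sex, strain or further allele for any array, and they do not state that each lymphoma came from a different mouse, so the p-values below measure the spread between these samples. Tumours had either been frozen as tissue or suspended and frozen as cell pellets, and the labels do not say which array followed which route.

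Neutrophils are short-lived phagocytes made in the bone marrow. Their granules are filled in a fixed order: azurophil granules with myeloperoxidase and serine proteases at the promyelocyte stage, specific granules with lactoferrin and cathelicidin at the myelocyte and metamyelocyte stages, and gelatinase granules last. Most granule messages are therefore abundant in immature marrow granulocytes and decline in the mature blood cell, whereas S100a8 and S100a9 stay high. Transcription factors of the C/EBP family and PU.1 act on many granule genes.

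The 4 genes that chose the lymphomas code for lactoferrin (Ltf), which binds iron, the cathelicidin precursor (Camp), the neutrophilic granule protein (Ngp) and lipocalin 2 (Lcn2), which binds bacterial iron carriers. The RefSeq gene table of GRCm38.p6 puts 3 of them in 1 stretch of 1.2 Mb, with Camp at chr9:109847377-109849456, Ngp at chr9:110419808-110423012 and Ltf at chr9:111019292-111042766, while Lcn2 lies at chr2:32384637-32387739. The 250 bases before each start, credited to RefSeq with build GRCm38.p6, are shown because these 4 genes move together over the lymphomas. They lie at chr9:111019042-111019291 on the plus strand (Ltf), chr9:109849457-109849706 on the minus strand (Camp), chr9:110419558-110419807 on the plus strand (Ngp) and chr2:32387740-32387989 on the minus strand (Lcn2). Capitals mark matches on either strand to a C/EBP motif, TTNNGNAA, or a PU.1 motif, GAGGAA, and no match of one overlaps a match of the other.
Ltf: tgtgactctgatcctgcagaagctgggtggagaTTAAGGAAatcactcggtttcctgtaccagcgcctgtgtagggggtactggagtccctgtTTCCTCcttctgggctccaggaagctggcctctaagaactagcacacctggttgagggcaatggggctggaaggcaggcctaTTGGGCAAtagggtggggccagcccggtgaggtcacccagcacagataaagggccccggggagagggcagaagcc
Camp: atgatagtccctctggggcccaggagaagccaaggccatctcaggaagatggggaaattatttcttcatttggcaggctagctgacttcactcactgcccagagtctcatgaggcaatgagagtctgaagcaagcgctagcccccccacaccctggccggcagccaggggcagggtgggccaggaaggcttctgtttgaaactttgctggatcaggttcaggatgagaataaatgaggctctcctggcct
Ngp: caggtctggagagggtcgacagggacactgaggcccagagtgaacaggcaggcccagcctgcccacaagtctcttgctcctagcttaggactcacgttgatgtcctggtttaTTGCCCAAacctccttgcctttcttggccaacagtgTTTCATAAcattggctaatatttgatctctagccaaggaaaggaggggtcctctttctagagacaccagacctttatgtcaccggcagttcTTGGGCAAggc
Lcn2: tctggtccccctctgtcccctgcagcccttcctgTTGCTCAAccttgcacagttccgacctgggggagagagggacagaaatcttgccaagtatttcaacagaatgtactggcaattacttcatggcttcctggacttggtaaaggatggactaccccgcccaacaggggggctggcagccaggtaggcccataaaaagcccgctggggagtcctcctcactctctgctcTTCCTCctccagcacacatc

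The C/EBP letters occurred in 3 of the 4 windows, with 2 matches before Ltf, 3 before Ngp and 1 before Lcn2. They occurred in 36.9% of 27025 mouse promoters of that length and in 28.8% of the 6980 such promoters of genes examined here. The PU.1 letters occurred before Ltf and Lcn2, against 23.1% of all promoters and 22.6% of those of examined genes. The Camp window held neither set of letters. These are matches of letters, with no binding data behind them.

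The arrays fell into 2 sets by title number and by level. The median over all probe sets was 6.29 log2 units for the 36 lymphomas with the lower title numbers (set 1) and 6.89 for the 7 with the higher ones (set 2), so levels are given within a set and differences were adjusted for it. The granule-rich group held 8 lymphomas of set 1 and 2 of set 2, and the granule-poor group 7 and 3. The B cell receptor chains Cd79a and Cd79b were read as a check of the lymphoma label: in set 1 they ran from 10.37 to 11.99 and from 10.93 to 12.08 over both groups, far above the set's median. Among the 23 lymphomas between the groups, Cd79b fell as low as -3.38 after set centring. Arrays have no read depth, so their number limits the precision. The 3′ minus 5′ difference of control probe sets, a sign of RNA quality, ran from 0.116 to 1.18 (median 0.472) in granule-rich and from 0.114 to 0.455 (median 0.247) in granule-poor lymphomas. The Y-linked Eif2s3y exceeded the X-inactivation transcript Xist in 7 of 10 granule-rich, 8 of 23 middle and 2 of 10 granule-poor lymphomas, so the groups were unequal in this sign of the sex of the mice.

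The marker score ran from 1.43 to 3.04 (median 1.89) in the granule-rich and from -2.45 to -1.48 (median -1.91) in the granule-poor lymphomas. The order was continuous at both edges: lymphoma 28, the last one inside the granule-rich group, scored 1.43 and lymphoma 24 just outside it 1.34, while lymphoma 21, the last inside the granule-poor group, scored -1.48 and lymphoma 26 just outside it -1.39. Each of the 4 genes was read by a single probe set. The levels that follow chose the groups and are given as a description, with no test.

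For Ngp, set 1 levels ran from 9.77 to 11.37 in 8 granule-rich and from 5.05 to 6.93 in 7 granule-poor lymphomas, and set 2 levels were 10.61 and 12.06 against 6.18, 6.22 and 6.68. For Ltf, they ran from 7.75 to 9.58 against 4.46 to 5.07 in set 1, and were 8.68 and 9.79 against 5.24, 5.50 and 5.51 in set 2. In both genes the lowest level was in lymphoma 22, and in set 1 the highest was in lymphoma 5. For Camp, they ran from 8.36 to 10.25 against 4.48 to 6.16 in set 1, and were 9.34 and 10.95 against 5.94, 6.03 and 6.36 in set 2. For Lcn2, they ran from 7.72 to 9.95 against 4.38 to 5.67 in set 1, and were 8.09 and 9.99 against 5.15, 5.35 and 5.44 in set 2. The set-adjusted differences were 4.64 (Ngp), 3.89 (Ltf), 3.87 (Camp) and 3.72 (Lcn2) log2 units, the smallest of which is 13.2-fold. Leaving 1 gene out of the score kept 9 or 10 of the 10 lymphomas in each group.

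**Figure D1:**
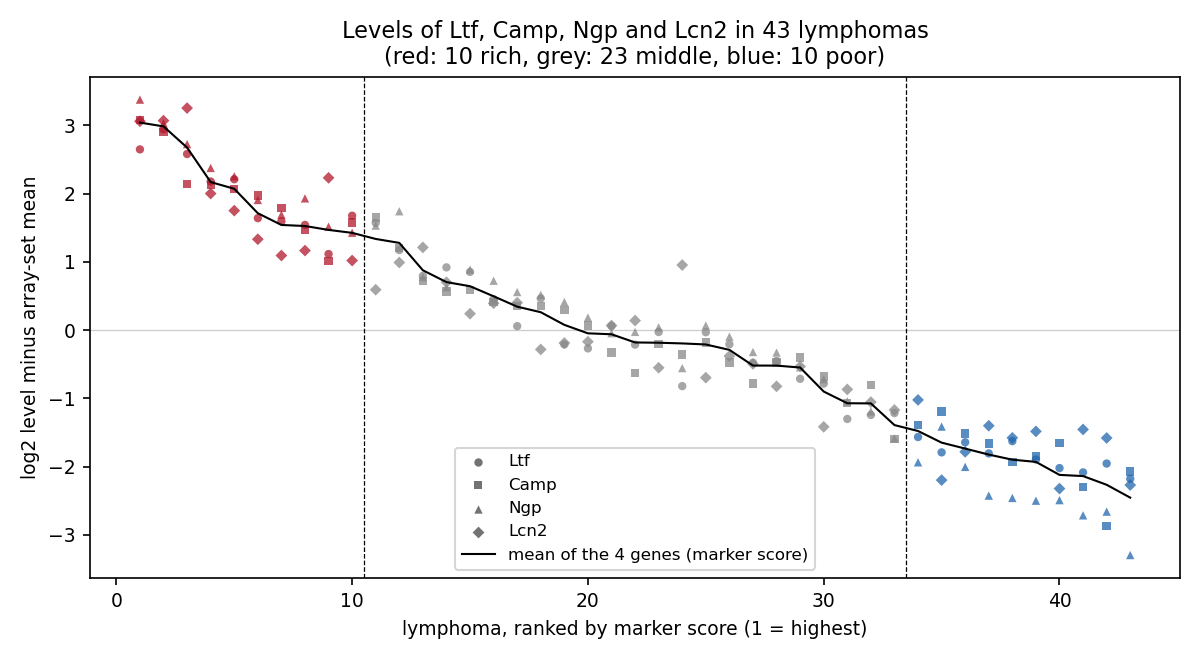
Each column is 1 of 43 lymphomas, ranked by marker score, with the log2 level of Ltf, Camp, Ngp and Lcn2 minus the array-set mean on the vertical axis and the mean of the 4 genes as a line. The score falls from 3.04 to -2.45 without a step at either dashed edge, and Lcn2 strays furthest from the others.

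Over the 43 lymphomas, which share arrays and set centring, Ltf, Camp and Ngp had pairwise Pearson correlations of 0.978 to 0.981, and Lcn2 correlated with them at 0.919 to 0.936. Lcn2 minus the mean of the other 3 was highest in lymphoma 13 (1.53, a middle lymphoma) and lymphoma 7 (1.02, granule-rich) and lowest in lymphoma 24 (-0.99), the one just outside the granule-rich group. Lipocalin 2 is also made by other cells in inflammation. A total of 22 genes lay within 0.5 Mb of the stretch with Camp, Ngp and Ltf, and 15 were tested. Of these 0 passed the threshold, near the share of all tested genes called higher (0.197%). Their median difference was 0.06, from -0.09 for the phosphatase gene Ptpn23 to 0.34 for the sterol sensor gene Scap.

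Across 8610 genes with at least 1 lymphoma above its set's median, limma with the set as a covariate called 17 genes higher in granule-rich lymphomas (0.197% of those tested) and 0 lower (0%) at an adjusted p below 0.05, with 870 genes at an unadjusted p below 0.05. Of the 17, 14 belong to the neutrophil lists, which follow the 4 genes that chose the groups, so their differences are described with their standard errors and no test is read from them. For 15 genes (0.174%) every granule-rich lymphoma lay above every granule-poor one after set centring, and for 0 (0%) below. The 17 called genes include 14 of these 15, and the other is Chil1. A total of 5 called genes, Ms4a3, Ctsg, Elane, Mmp8 and Cd177, passed the filter only through granule-rich lymphomas. No granule-poor lymphoma lay above the median for 12 of the 17, so their granule-poor levels are low signals. Most of these 12 were also low in granule-rich lymphomas. Of the 10, only 1 lay above the median for Ms4a3, Mmp8, Trem3 and Retnla and 2 for Elane. The number was 3 for Ctsg and Cd177 and 4 for Pglyrp1 and Mmp9, against 9 for Mpo and 10 for Prtn3 and Ifitm6. In bulk samples fewer cells of a type and less RNA per cell cannot be told apart.

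Azurophil granule genes were higher in granule-rich lymphomas for nearly the whole list. All 6 tested members had a positive difference (median 1.34, against 0.00 for all tested genes), and 5 were called, with no test read from them. Of these 5, Ms4a3, Ctsg and Elane passed the filter only through granule-rich lymphomas. Myeloperoxidase, Mpo, makes hypochlorous acid. In set 1 Mpo ran from 6.23 to 8.06 (median 7.18) in granule-rich and from 4.04 to 4.74 (median 4.30) in granule-poor lymphomas, and in set 2 it was 8.18 and 8.90 against 5.11, 5.18 and 5.26. The groups lay well apart in both sets, with lymphoma 7 the lowest granule-rich one. The difference was 3.02 ± 0.19 (SE), or 8.13-fold. The serine proteases Prtn3 (proteinase 3), Ctsg (cathepsin G) and Elane (neutrophil elastase) differed by 2.18 ± 0.19, 1.79 ± 0.18 and 0.79 ± 0.15, and Ms4a3, a membrane protein of granulocyte and monocyte progenitors, by 0.89 ± 0.13. Prtn3 ran from 6.67 to 8.34 against 4.96 to 5.37 in set 1 and was 7.80 and 7.91 against 5.30, 5.35 and 5.35 in set 2. Elane, by contrast, was high in lymphomas 5 and 41 (7.03 in the latter) and stayed between 5.42 and 6.48 in the other granule-rich lymphomas, against 5.08 to 5.24 (set 1) and 5.76 to 5.99 (set 2) in the granule-poor ones. Cst7, a cysteine protease inhibitor also made by cytotoxic lymphocytes, differed by 0.34 ± 0.41.

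Of 13 tested genes of specific and gelatinase granules 12 had a positive difference (median 1.11) and 5 were called, with no test read from them. Of these 5, Mmp8 and Cd177 passed the filter only through granule-rich lymphomas. Chil3, a chitinase-like protein, differed by 3.19 ± 0.40 (9.10-fold), the surface glycoprotein Cd177 by 2.10 ± 0.20, the collagenase Mmp8 by 4.01-fold and the peptidoglycan recognition protein Pglyrp1 by 1.83 ± 0.27. Chil3 ran from 8.40 to 10.96 (median 9.35) in granule-rich and from 5.17 to 7.15 (median 6.31) in granule-poor lymphomas of set 1, and was 9.01 and 10.46 against 5.56, 7.26 and 7.99 in set 2. The groups did not overlap within a set, although granule-poor lymphomas varied widely among themselves and lymphoma 37 came closest to the granule-rich ones. Pglyrp1 reached 5.60 and 5.77 in the granule-poor lymphomas 22 and 31, close to the 5.95 of the lowest granule-rich one, whereas the other 5 granule-poor lymphomas of set 1 lay at 4.07 to 4.31. Mmp9, gelatinase B, differed by 0.87 ± 0.16, and its groups overlapped through lymphoma 21 (6.22). The lowest members were Adam8, a metalloprotease of leukocytes (0.02 ± 0.20), and the cytochrome Cyp4f18 (-0.23 ± 0.45).

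The largest differences of any tested gene were those of S100a9 and S100a8, which form calprotectin, the main cytosolic protein of neutrophils. In set 1 S100a9 ran from 11.12 to 12.19 (median 11.54) in granule-rich and from 4.36 to 8.54 (median 6.61) in granule-poor lymphomas, and in set 2 it was 11.01 and 12.38 against 5.97, 6.49 and 6.63. The granule-rich lymphomas lay close together and the granule-poor ones were widely spread, with lymphoma 21 the highest of these. S100a9 differed by 5.23 ± 0.39 (37.5-fold) and S100a8 by 4.73 ± 0.35 (26.5-fold). Ifitm6, an interferon-induced transmembrane family member, differed by 2.97 ± 0.32 and Fpr2, a receptor for formylated peptides, by 1.33 ± 0.39. Of the 18 tested cytosol and surface genes 17 had a positive difference (median 0.49) and 4 were called, the last being the receptor Trem3 (0.93 ± 0.16). The G-CSF receptor Csf3r differed by 0.49 ± 0.12 with overlapping groups, and the chemokine receptor Cxcr2 stayed below the set median in every lymphoma. The lowest members were G0s2 (0.09 ± 0.12) and the C-type lectin Clec4e (-0.05 ± 0.60). Ly6g is among 8 members of this list with no probe set naming it alone.

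**Figure D2:**
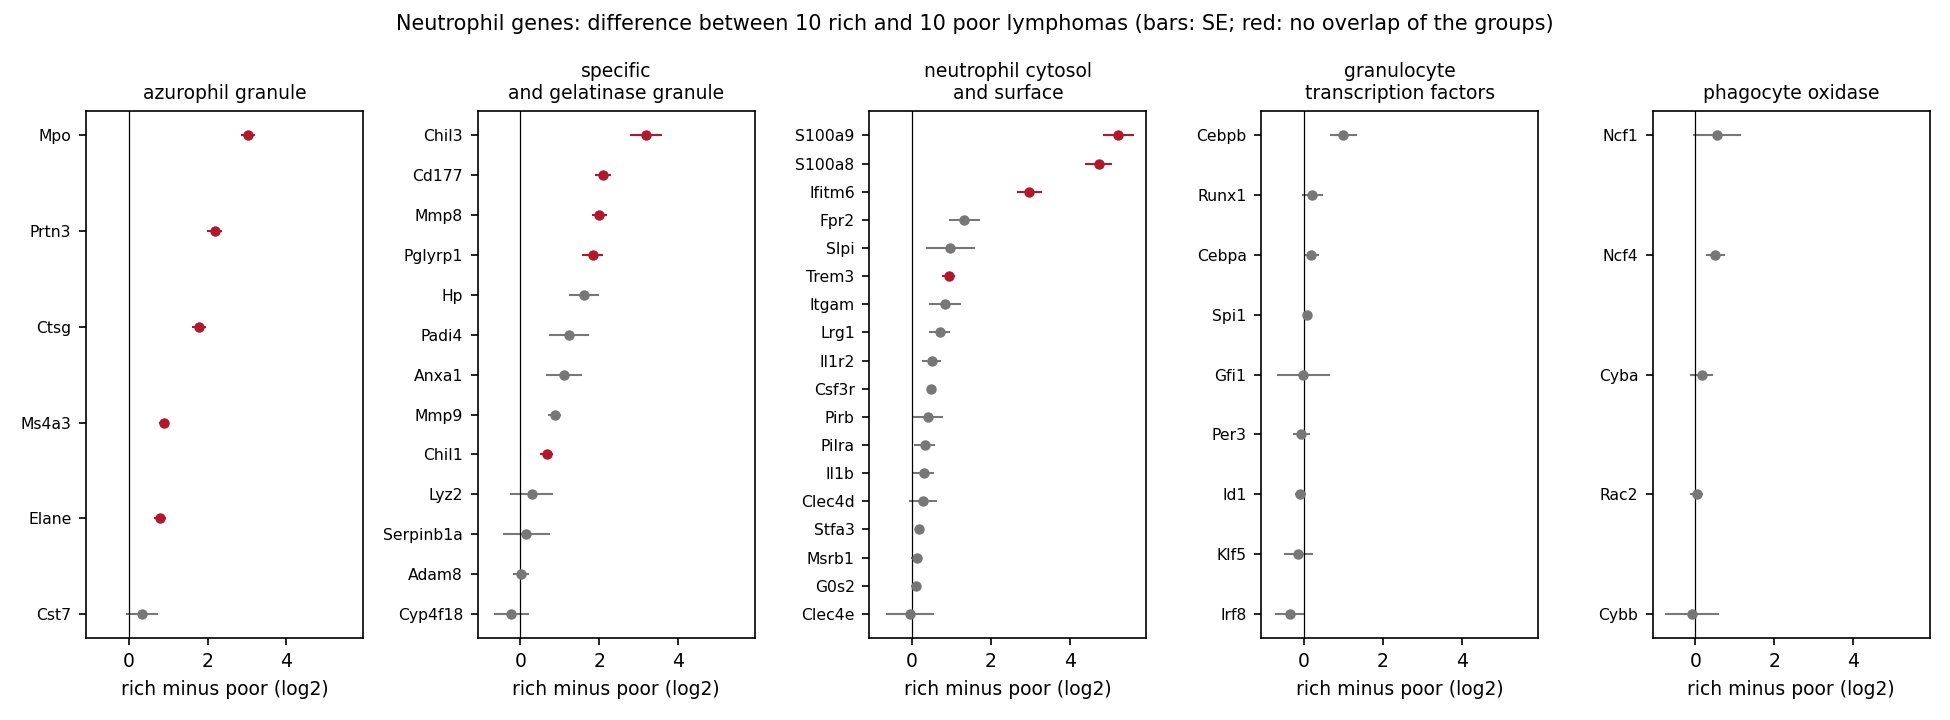
Points give the set-adjusted log2 difference between 10 granule-rich and 10 granule-poor lymphomas with its SE for each tested gene of 5 neutrophil lists, and red marks genes whose groups do not overlap. S100a9, S100a8, Chil3, Mpo and Ifitm6 lie furthest right, and all transcription factor and oxidase genes are grey.

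The transcription factors of granulocytes and the phagocyte oxidase had smaller median differences than the granule genes. Of the granule genes, Ms4a3, Ctsg, Elane, Mmp8 and Cd177 passed the filter only through granule-rich lymphomas. The medians are therefore not like for like, and the comparison is a description. Of all 8610 tested genes, 0.197% were called higher, 0% lower and 870 had an unadjusted p below 0.05. For lists of this size, here and below, 0 called genes is near that share. Of 9 tested factors 4 had a positive difference (median -0.01) and 0 were called in either direction by limma, with 1 at an unadjusted p below 0.05. Cebpb, the C/EBP factor of emergency granulopoiesis, differed by 1.01 ± 0.35, Runx1 by 0.21 ± 0.26, Cebpa by 0.19 ± 0.19 and Spi1, which codes for PU.1, by 0.09 ± 0.11. Klf5 (-0.13 ± 0.36) and Irf8 (-0.35 ± 0.39), a factor of monocytes that B cells also express, were lowest, and Gfi1, a repressor needed for neutrophil maturation and also made in lymphocytes, differed by -0.01 ± 0.67. No value is given for Cebpe, which has no probe set naming it alone. Of the 5 oxidase genes, which B cells and macrophages also express, 0 were called (median 0.16), with 1 at an unadjusted p below 0.05. Among them Ncf1 differed by 0.55 ± 0.60, Ncf4 by 0.50 ± 0.24, Cyba by 0.16 ± 0.29, Rac2 by 0.04 ± 0.17 and Cybb by -0.09 ± 0.68. Of 10 tested genes for signals that drive granulocyte production or recruitment, 0 were called and 0 had an unadjusted p below 0.05 (median -0.04). The G-CSF gene Csf3 did not pass the filter, and Cxcl12, the chemokine that holds granulocytes in the marrow, differed by -1.11 ± 0.67 (adjusted p = 0.575).

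The 23 middle lymphomas, which belonged to neither group, were used to ask which genes followed the marker score there. With the set as a covariate, limma called 4 positive slopes (0.0465% of genes tested) and 0 negative ones (0%), with 378 genes at an unadjusted p below 0.05. The slopes, in log2 units per unit of score, were 1.23 ± 0.11 for S100a9 (adjusted p = 1.6e-06), 1.11 ± 0.11 for S100a8 (4.3e-06), 0.82 ± 0.11 for Mpo (0.00047) and 0.42 ± 0.08 for Prtn3 (0.0314). All 4 are on the neutrophil lists, which follow the 4 genes that make up the score. Their slopes and adjusted p-values are therefore a description, and no test of neutrophil genes is read from them. S100a9, S100a8 and Mpo were called in all 23 fits without 1 middle lymphoma, which were added after seeing the data. Prtn3 was called in 15 of the 23, and its adjusted p rose to 0.41 without lymphoma 24. In set 1 S100a9 ran from 7.91 to 11.49 and Mpo from 4.20 to 6.91 among the middle lymphomas, with Mpo highest in lymphoma 24, the one just outside the granule-rich group. Cd177 (0.46 ± 0.09, adjusted p = 0.0627) lay next to the threshold.

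All 17 genes called between the groups had a positive slope in the middle lymphomas, where 42.4% of all tested genes did. Positive slopes were also found for 6 of 6 azurophil, 9 of 13 specific and gelatinase, 15 of 18 cytosol and surface, 7 of 9 transcription factor and 3 of 5 oxidase genes. Cebpb, the factor with the largest difference between the groups, had a negative slope (-0.36 ± 0.21, limma adjusted p = 0.952). The differences between the groups and the slopes come from separate arrays but share the genes of the marker score, so they are not independent readings of the neutrophil genes. A test of whether the difference between groups depended on the array set called 0 genes by limma, with 283 at an unadjusted p below 0.05.

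**Figure D3:**
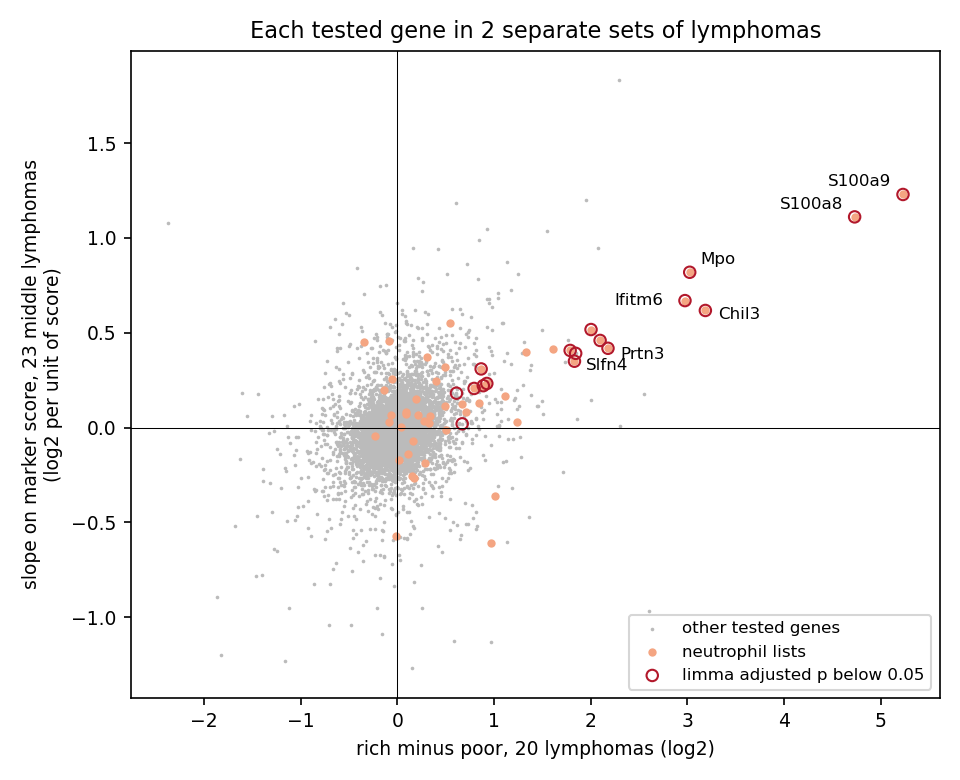
Each point is 1 of 8610 tested genes, with its log2 difference between 20 granule-rich and granule-poor lymphomas on the horizontal axis and its slope on the marker score in the 23 middle lymphomas on the vertical axis. The 17 ringed genes lie right of 0 and above 0, from Retnla with a slope of 0.02 to S100a9 with 1.23.

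Outside the neutrophil lists 3 genes were called higher. Slfn4, a member of the Schlafen family made in myeloid cells, ran from 7.12 to 9.87 (median 7.40) in granule-rich and from 5.27 to 6.70 (median 5.85) in granule-poor lymphomas of set 1, and was 7.77 and 7.93 against 6.50, 6.57 and 6.77 in set 2. The groups did not overlap, and lymphomas 4 (9.84) and 7 (9.87) stood above the other granule-rich ones of set 1, which reached 7.60 at most. The difference was 1.84 ± 0.35 (adjusted p = 0.0235), but the slope of 0.39 ± 0.28 in the middle lymphomas was not called (adjusted p = 0.952). Retnla, resistin-like alpha, a secreted protein of alternatively activated macrophages, differed by 0.67 ± 0.13 (adjusted p = 0.0235). Its groups overlapped at the granule-rich lymphoma 7 (5.29), all levels in both groups lay between 5.04 and 6.69, and its middle slope was 0.02 ± 0.16. AY036118, a long noncoding RNA in the RefSeq table, differed by 0.61 ± 0.11 (adjusted p = 0.0143), from 10.14 to 11.01 against 9.44 to 10.22 in set 1, with overlap through the granule-poor lymphoma 21. None of the 3 stayed called in set 1 alone, where 11 genes were higher, with the stroma score as covariate or with Eif2s3y above Xist. Retnla was past the threshold in 16 of 26 alternative settings and 12 of 20 fits without 1 lymphoma. The counts were 22 of 27 and 15 of 20 for Slfn4, and 18 of 27 and 20 of 20 for AY036118.

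Of the 17 genes, 15 had a promoter in the RefSeq table. The C/EBP letters occurred in 9 of those 15 (60.0%, against 28.8% of the promoters of examined genes) and the PU.1 letters in 9 of 15 (60.0%, against 22.6%). This is a description of letters in genes chosen by their level.

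No gene on the lists of other myeloid cells, which do not hold Slfn4 or Retnla, was called in the comparison of the groups adjusted for set alone. Of 11 monocyte genes 0 were called by limma and 2 had an unadjusted p below 0.05, although 10 were positive (median 0.26). Ccr2, the receptor that brings monocytes out of the marrow, differed 2.82-fold (log2 SE 0.33, adjusted p = 0.0911). It was called in 4 of 26 alternative settings, among them the one with the 3′ minus 5′ control difference and the one with the macrophage score, and also without lymphoma 31. After set centring Ccr2 ran from 0.24 to 2.22 (median 0.48) in granule-rich and from -1.66 to 0.95 (median -0.58) in granule-poor lymphomas, with overlap. The monocyte score was 1.84 in lymphoma 4 and 1.88 in lymphoma 7, and at most 0.18 in the other granule-rich lymphomas. The median difference of the monocyte genes was 0.08 without lymphoma 4, 0.13 without lymphoma 7, 0.14 without lymphoma 16, 0.17 without lymphoma 35 and 0.40 without lymphoma 31. It was 0.66 with the 3′ minus 5′ control difference in the fit and 0.67 with the macrophage score, where 1 and 2 of the 11 genes were called. Of 21 macrophage genes 0 were called, 1 had an unadjusted p below 0.05 and 18 were negative (median -0.59). The macrophage list score, the mean of its set-centred genes, ran from -1.12 to 1.96 in granule-rich and from -1.21 to 1.39 in granule-poor lymphomas, with medians of -0.65 and 0.31. Among the granule-rich only lymphomas 4 (1.39) and 7 (1.96) had a positive macrophage score, and the other 8 lay between -1.12 and -0.46. The median difference of the macrophage genes was -0.39 without lymphoma 1, -0.32 without lymphoma 22, -0.28 with the 3′ minus 5′ control difference in the fit and -0.20 with Eif2s3y above Xist. Of 3 eosinophil, basophil and mast cell genes, 7 erythroid genes, 4 megakaryocyte genes and 8 progenitor genes 0 were called, with medians of 0.14, -0.10, -0.39 and 0.02 and 1 gene in all at an unadjusted p below 0.05. The erythroid score reached 1.14 in granule-poor and 0.38 in granule-rich lymphomas. The erythroid factors Klf1 and Gata1 stayed below the set median in every lymphoma.

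Lymphocytes other than the tumour and the tissue frame differed in direction without passing the threshold. All 14 tested T cell genes had a positive difference (median 0.94) and 9 had an unadjusted p below 0.05, but 0 were called by limma. In the middle lymphomas 13 of the 14 had a positive slope on the marker score (median 0.15), with 0 called. Cd8b1, a chain of the CD8 co-receptor, differed by 1.95 ± 0.50 (adjusted p = 0.197), from -1.35 to 3.43 (median 0.65) in granule-rich and from -2.20 to 0.59 (median -1.66) in granule-poor lymphomas after set centring. The T cell score ran from -0.38 to 2.03 (median 0.24) against -1.35 to 0.66 (median -0.88). All 11 natural killer and cytotoxic genes were positive (median 0.58), 0 were called and 2 had an unadjusted p below 0.05. The cytotoxic score was 2.42 in lymphoma 4 and 1.85 in lymphoma 7, and between -0.55 and 0.05 in the other 8 granule-rich lymphomas. Without lymphoma 4 the median difference of this list was 0.22, without lymphoma 7 it was 0.29, and with the 3′ minus 5′ control difference in the fit it was 1.33. The granule protease Ctsw differed by 1.07 ± 0.32 (adjusted p = 0.309). In the 9 dendritic cell genes the median was 0.25, with 0 called and 3 at an unadjusted p below 0.05, and the homing receptor Ccr7 differed by 1.05 ± 0.27 (adjusted p = 0.198).

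All 20 stroma and endothelium genes had a negative difference (median -0.69) and 8 had an unadjusted p below 0.05, with 0 called by limma. The middle lymphomas did not share this direction: 9 of the 20 genes had a positive slope on the marker score (median -0.02), where 42.4% of all tested genes did. The endothelial adhesion molecule Pecam1 differed by -0.60 ± 0.17 (adjusted p = 0.258) and ran from -0.99 to 0.33 against -0.21 to 0.67 after set centring. The stroma score ran from -0.58 to 0.81 (median -0.38) in granule-rich and from -0.44 to 2.14 (median 0.00) in granule-poor lymphomas, with overlap. The 3 highest granule-poor scores were those of lymphomas 1, 2 and 22, at 1.52, 2.14 and 1.69, and with Eif2s3y above Xist in the fit the median difference was -0.43. All 5 adipocyte genes were negative (median -1.04), 3 at an unadjusted p below 0.05 and 0 called, and the lipoprotein lipase gene Lpl differed by -1.46 ± 0.61 (adjusted p = 0.464). The medians of the T cell, stroma, macrophage, adipocyte, monocyte and cytotoxic lists kept their sign under equal medians and quantile normalisation, but not in every fit with a list score as covariate. With the stroma score held, the macrophage median was 0.06, and with the T cell score held, which was added after seeing the data, the monocyte median was -0.41 and the cytotoxic one -0.30. With the macrophage, T cell, stroma and erythroid scores held together, the adipocyte median was 0.12. The T cell median was -0.07 in that fit. Holding a list's own score fixes the mean difference of its genes in advance, so this value does not bear on the sign of the T cell difference.

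**Figure D4:**
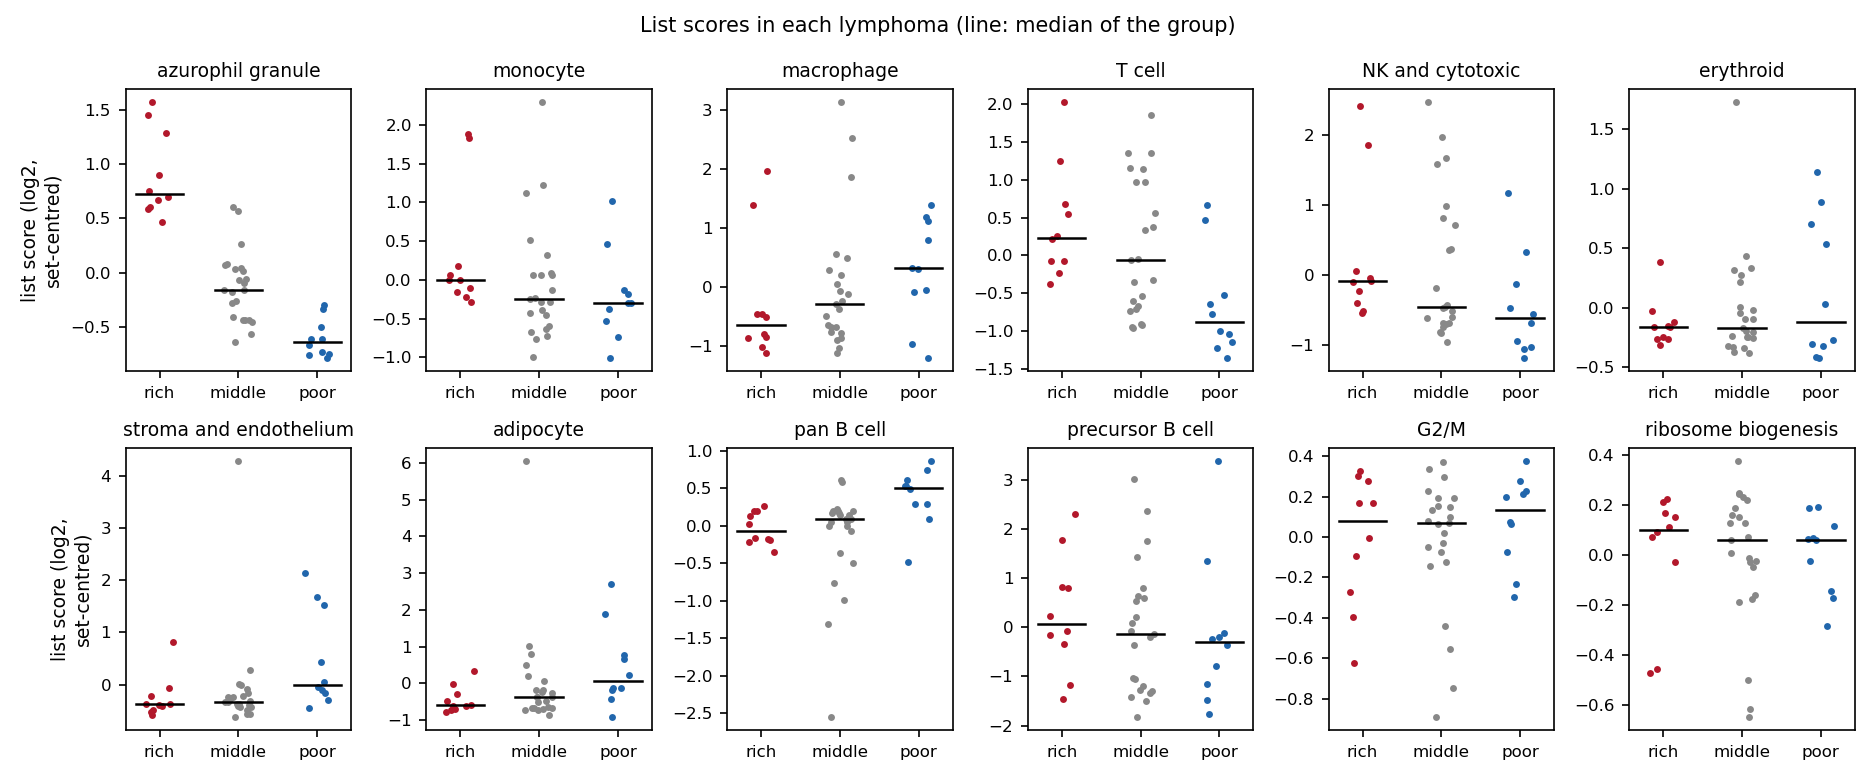
Each point is a lymphoma and each panel the mean set-centred log2 level of 1 list, by granule-rich (10), middle (23) and granule-poor (10) group with the median as a line. Azurophil scores do not overlap between the outer groups (0.47 to 1.57 against -0.79 to -0.30), and the T cell, stroma, macrophage and B cell scores do. The azurophil list follows the genes that chose the groups, so its separation is a description. Its members Ms4a3, Ctsg and Elane passed the filter only through granule-rich lymphomas.

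The tumour's own B cell genes showed no called difference. Of 11 pan B cell genes 10 were negative (median -0.33), 0 were called and 1 had an unadjusted p below 0.05. In the middle lymphomas 0 of the 11 had a positive slope on the marker score (median -0.31), with 0 called. The signalling chain Cd79b differed by -0.31 ± 0.14 (adjusted p = 0.491). The pan B cell score ran from -0.35 to 0.26 (median -0.07) in granule-rich and from -0.49 to 0.86 (median 0.50) in granule-poor lymphomas, and all but 1 of the granule-poor scores were above 0. Medians were 0.25 for 13 precursor B cell genes (12 positive), -0.07 for 9 mature B cell genes, -0.53 for 4 germinal centre genes, -0.19 for 8 MHC class II genes and 0.16 for 12 plasma cell genes, with 0 called in each. Of the 13 precursor B cell genes, 6 had a positive slope in the middle lymphomas (median -0.04). The interleukin 7 receptor Il7r, which sustains precursor B cells and is also made by T cells, differed by 1.51 ± 0.64 (adjusted p = 0.464), and the joining chain of secreted antibody, Jchain, by 2.07 ± 0.71 (adjusted p = 0.353).

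Proliferation and MYC-linked genes lay close to the median of all genes. The medians were -0.11 for 22 G2/M genes, 0.00 for 22 S phase genes, 0.01 for 24 ribosome biogenesis genes and 0.04 for 17 metabolic targets of MYC, with 0 called and 1, 2, 2 and 1 genes at an unadjusted p below 0.05. The mitotic spindle gene Nusap1 had the largest statistic among the G2/M genes (-0.29 ± 0.11, adjusted p = 0.401). Myc itself ran from 9.68 to 10.65 (median 10.05) in granule-rich and from 9.71 to 11.18 (median 10.60) in granule-poor lymphomas of set 1, and was 11.18 and 11.60 against 10.92, 11.51 and 11.78 in set 2. The groups overlapped in both sets, and the difference was -0.30 ± 0.19 (95% interval -0.70 to 0.10, adjusted p = 0.607). Cdkn2a, the tumour suppressor locus often lost in these lymphomas, varied widely in both groups, from -3.71 to 2.05 against -3.21 to 3.73 after set centring, with a difference of -1.82 ± 0.95 (adjusted p = 0.524).

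The remaining lists also gave 0 called genes. Medians were 0.26 for 17 interferon response genes (15 positive, 1 at an unadjusted p below 0.05), -0.05 for 10 NF-kB genes, -0.10 for 19 glycolysis and hypoxia genes and 0.03 for 16 immediate early genes. In the middle lymphomas the interferon genes went the other way, with 4 of 17 slopes positive (median -0.16). In the acute phase and cytokine response list, 13 genes other than Lcn2 were tested, and the largest statistic was that of haptoglobin, Hp, which is also on the specific granule list (1.61 ± 0.38, adjusted p = 0.125). Hp ran from 0.18 to 2.42 in granule-rich and from -1.81 to 0.89 in granule-poor lymphomas after set centring. Xist differed by -2.38 ± 1.09 (adjusted p = 0.487) and Eif2s3y by 2.60 ± 1.03 (adjusted p = 0.432).

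With the 3′ minus 5′ difference of the control probe sets in the fit, 15 of the 17 genes stayed called, and Retnla and AY036118 did not. With Eif2s3y above Xist as a covariate, which was added after seeing the data, 11 of the 17 stayed called. The same 11 stayed called with the stroma score as covariate. In both fits AY036118, Elane, Mmp9, Retnla, Slfn4 and Trem3 were lost, which include all 3 called genes outside the neutrophil lists. Holding the macrophage, T cell, stroma and erythroid scores together left 10 genes, all among the 17.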

How the data were processed

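Values were measured on Affymetrix Mouse430A_2 arrays, 1 per sample. The authors deposited 1 log2 value for each probe set, and RMA and affy are the tools that the submitters' processing notes name, with versions not given in the sources used here. Of 22690 probe sets, 64 were controls, 20380 had 1 gene symbol in the platform annotation, 691 several and 1555 none. The probe set with the highest mean over the 43 lymphomas stood for each of 12393 genes, and 8610 with at least 1 lymphoma above its set's median were tested. Neutrophil markers, gene lists and the choice of lymphomas were made with earlier results of these data known. The 10 highest and 10 lowest lymphomas were compared in R 4.3.3 with limma 3.58.1 (lmFit and eBayes with an intensity trend, two-sided, array set as covariate, Benjamini-Hochberg over all tested genes, threshold 0.05, 17 residual degrees of freedom), as were slopes on the score in 23 middle lymphomas and the interaction with set. Ltf, Camp, Ngp and Lcn2 stayed out of the fits. The code was tested on simulated data.

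Named were the 4 highest and 2 lowest members of each neutrophil list, genes past the threshold outside them with the same sign in the middle lymphomas, the member with the largest statistic of each other list, 8 single genes and the neighbours of the 3 chromosome 9 genes. Mmp9, Trem3, Chil1, Cxcr2, Klf1, Gata1, Cd79a and Ly6g were named after their values were seen. A list score is the mean of a list's tested genes after set centring. Alternatives changed the filter, the probe set rule, the normalisation, the covariates, the weights, the group size and the genes of the score, and left out each of the 20 grouped and, added after seeing the data, each of the 23 middle lymphomas in turn. Lymphomas are numbered in accession order.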

Additional observations from a re-analysis of the deposited data

Results flagged for a closer look

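In 15 of 140 groups checked (70 genes in 2 groups), 1 lymphoma stood apart from the other 9 by the gap to its nearest neighbour over the whole range of the group. Chance flags about 1 in 20 groups, or 7.0 of 140. The gap shares are given with the set-centred log2 level of that lymphoma and of its neighbour.

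Among neutrophil genes, in granule-poor lymphomas Mpo was high in lymphoma 16 (0.537 of the range, -0.69 against -1.08), Mmp8 was low in lymphoma 1 (0.569, -1.31 against -0.92), Mmp9 was high in lymphoma 21 (0.755, 0.50 against -0.28) and Clec4e was high in lymphoma 22 (0.604, 4.29 against 1.21). Lymphoma 31 was high in Klf5 (0.887, 3.44 against -0.02) and Rac2 (0.533, 0.79 against 0.27). In granule-rich lymphomas Pglyrp1 was high in lymphoma 4 (0.48, 2.56 against 1.54), and lymphoma 11 was low in the oxidase genes Cyba (0.534, -1.28 against -0.15) and Ncf4 (0.47, -0.84 against 0.02).

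Lymphoma 4 was also the highest granule-rich one in Irf8 (0.479, 1.49 against 0.18), in Ctsw (0.613, 2.42 against 0.67) and in the platelet receptor Clec1b (0.471, 0.29 against -0.24). Lymphoma 7 was high in Cxcl12 (0.599, 1.36 against 0.05) and Lpl (0.512, 2.10 against 0.15), and lymphoma 10 was low in Jchain (0.471, -1.84 against 0.04).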

How the results depend on the processing

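No alternative reversed a called difference. Beside the 17 genes higher and 0 lower, the counts were 24 and 1 with no filter, 5 and 0 among the 6194 genes with a mean above the median (12 of the 17 were not tested there), 18 and 3 with all probe sets of a gene averaged, 11 and 0 in set 1 alone, 12 and 0 with no set in the fit, 57 and 35 with array weights, 18 and 1 with all 43 lymphomas in 3 levels, 20 and 2 for the slope on the score over 43, and 17 and 2 with the title number as covariate. With the macrophage, T cell, stroma and erythroid scores as covariates the counts were 10 and 0, with the macrophage score 40 and 6 and with the stroma score 12 and 0. Fits added after seeing the data gave 14 and 3 with the T cell score and 12 and 2 with Eif2s3y above Xist. Groups of 7 gave 15 and 1, groups of 14 gave 26 and 10, and the score without Lcn2 gave 19 and 6. The absence of lower genes therefore held in some settings and not in others. The cause was not tested.

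Leaving out 1 of the 20 grouped lymphomas gave 13 to 19 genes higher and 0 to 2 lower, with the fewest higher genes without lymphoma 2 (13) and lymphoma 41 (14). Without either, Elane, Mmp9, Retnla and Slfn4 were no longer called. In the middle lymphomas 3 to 6 positive slopes and 0 negative ones were called over the alternatives and also over the 23 fits without 1 lymphoma. Lymphomas 9, 13, 32 and 40, all middle ones, could not be left out of the groups, and without them 5 positive slopes were called, 3 of them among the 4. No paired analysis was possible because the lymphomas' numbers pair no samples between the groups.

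Array signal bounds what can be measured for genes below the set median, the labels do not give the freezing route, sex or animal, and the groups of 10 limit what can be called.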

Other observations

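The 1 spleen array, which belongs to no comparison, lay in set 2. Its levels were 13.3 for Ltf, 13.3 for Camp, 14.3 for Ngp and 13.2 for Lcn2, above the highest lymphoma of set 2 by 3.53, 2.39, 2.26 and 3.26 log2 units. S100a9, at 14.3 in the spleen, was also above both granule-rich lymphomas of set 2 (11.01 and 12.38).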
